A study of Mus musculus with 3 samples.

Results

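Lipid-associated macrophages are macrophages that take up and break down lipid and cell debris, and they are known from fat, atherosclerotic plaques and injured tissue. TREM2, a surface receptor that signals through the adaptor TYROBP, senses lipids and lipoproteins, and cells of this kind carry transcripts for the secreted phosphoprotein osteopontin (Spp1), the lysosomal glycoprotein GPNMB, fatty acid-binding proteins, the tetraspanin CD9, lipoprotein lipase, galectin-3, apolipoprotein E and the fatty acid receptor CD36. The 10 genes described here are Spp1, Trem2, Gpnmb, Fabp4, Fabp5, Cd9, Lpl, Lgals3, Apoe and Cd36, out of 32285 genes counted. They were taken by symbol as a known gene group, with earlier results of these data known, and all 10 were found. The study itself lists Spp1 among the transcripts enriched in its Ccr2+ inflammatory macrophages, so the group is not independent of these cells.

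The counts come from CITE-seq of CD45+ aortic leukocytes, in which the transcripts of a cell and the tagged antibodies bound to its surface are both counted as unique molecular identifiers (UMIs). Control Jak2WT mice were mice 1 to 5, and Jak2V617F MyC mice carried a Flex allele of Jak2V617F that LysM-Cre switches on mainly in myeloid cells. An aneurysm was seen by eye at dissection in mutant mice 7 and 9, and the labels give mutant mice 6, 8 and 10 as without aneurysm. The study describes the aortas of these 3 mice as dilated, and they are called dilation here. No group was treated, and all animals received an intravenous anti-CD45.2 antibody so that circulating leukocytes could be left out of the sort. Each mouse is 1 hashtag of a pool of 10 that was sorted once and run once on the 10x Genomics platform, so the mouse is the replicate and no library separates the groups, while free RNA of the pool can reach every cell.

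Of 8471 barcodes, 4871 carried a single hashtag and at most 10% mitochondrial transcripts, with 112 to 811 cells and 1038443 to 9643994 UMIs per mouse. The curated macrophages and monocytes, from which low-RNA clusters were removed, numbered 46 to 371 cells per mouse. Clusters were built without the 10 genes but from other genes of the same cells, some of which go with the members. Levels of the members are therefore not independent of the clusters. The clusters were named by set marker genes other than the members, or by leading genes. The main ones were resident macrophages (a Cd209g-Tppp3 and a Txnip-Ddit4 cluster), immediate-early macrophages, Ccr2+ inflammatory macrophages (a Mmp12-Pdpn and an Il1a-Hbegf cluster), Saa3+ cavity-type myeloid cells and type 2 conventional dendritic cells (cDC2). Levels are CPM, a gene's UMIs scaled by all UMIs in the same cells of 1 mouse. Fewer cells of a type and less RNA per cell cannot be told apart in a level summed over mixed cells.

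The promoters of the receptor Trem2 and of Spp1 and Gpnmb, whose transcripts were higher together in aneurysm macrophages as described below, are shown first. Each run holds 250 bases before and 50 after a RefSeq start site on the plus strand of GRCm38.p6, at chr17:48346151-48346450 for Trem2, chr5:104434861-104435160 for Spp1 and chr6:49036268-49036567 for Gpnmb. Capitals mark matches, on either strand, to the AP-1 motif TGANTCA (in Trem2 and Gpnmb) and to the PU.1 motif GGAAGTG (in Spp1).
Trem2: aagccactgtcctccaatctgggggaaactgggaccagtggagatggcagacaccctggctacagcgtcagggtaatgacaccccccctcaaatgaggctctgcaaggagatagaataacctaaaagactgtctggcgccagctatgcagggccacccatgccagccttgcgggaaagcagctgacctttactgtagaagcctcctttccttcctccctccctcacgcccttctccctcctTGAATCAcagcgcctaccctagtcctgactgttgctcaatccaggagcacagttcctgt
Spp1: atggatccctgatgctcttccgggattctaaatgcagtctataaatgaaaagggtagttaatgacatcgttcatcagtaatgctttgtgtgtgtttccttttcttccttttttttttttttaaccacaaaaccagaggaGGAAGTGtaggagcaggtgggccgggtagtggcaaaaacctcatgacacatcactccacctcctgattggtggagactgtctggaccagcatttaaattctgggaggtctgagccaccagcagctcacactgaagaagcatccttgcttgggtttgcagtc
Gpnmb: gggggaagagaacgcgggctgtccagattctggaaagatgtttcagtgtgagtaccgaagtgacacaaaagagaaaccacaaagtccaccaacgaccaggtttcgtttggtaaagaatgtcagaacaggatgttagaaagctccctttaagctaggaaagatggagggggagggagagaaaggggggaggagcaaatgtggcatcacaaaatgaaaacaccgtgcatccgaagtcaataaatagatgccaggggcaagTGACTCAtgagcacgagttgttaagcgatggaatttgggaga
Among 32851 promoters of the same length, 7.81% held TGANTCA, 11% held GGAAGTG, 14.2% held the E-box CATGTG and 7.15% held the E-box CACGTG. Of the 10 genes, 7 had an entry with 10 start sites in all, and the other matches were a CATGTG in the Cd9 promoter and none in those of Cd36, Lgals3 and Apoe or at the other Spp1 start. A match is a run of letters and not a measured binding site. In GENCODE vM21 on the same assembly, the genes for the fatty acid-binding proteins lie near each other on chromosome 3, Fabp5 from 10012548 to 10016607 and Fabp4 from 10204088 to 10208576.

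In the curated macrophages, 7 of the 10 genes were higher in the mice with aneurysm than in those with dilation: Spp1, Gpnmb, Trem2, Fabp5, Cd9, Lpl and Lgals3. Fabp4, Apoe and Cd36 did not pass the test. Gpnmb passed the filter on low counts only through the aneurysm mice. The test was edgeR's quasi-likelihood test on UMIs summed per mouse, 2 against 3 mice, with Benjamini-Hochberg adjustment over 8990 genes at 0.05, and 6.02% of the tested genes were called higher and 4.34% lower. The median log2 fold change was 1.60 over the members and -0.01 over all genes tested.

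**Figure D1:**
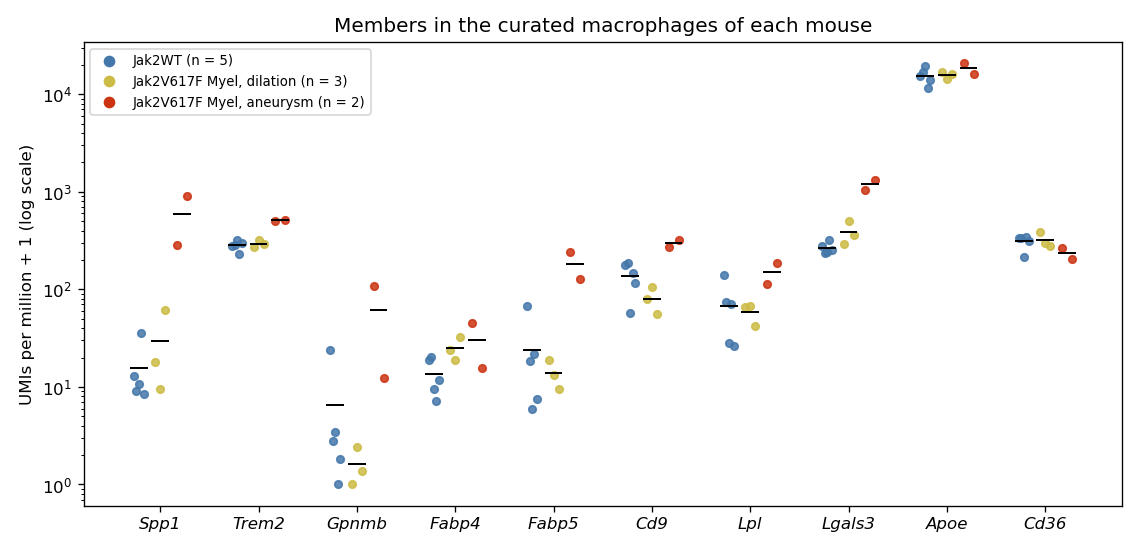
CPM plus 1 (log axis) of the 10 genes in the curated macrophages, with 1 point per mouse and a bar at the mean of Jak2WT (n = 5), dilation (n = 3) and aneurysm mice (n = 2). The aneurysm mice lie above all other mice for Spp1, Trem2, Fabp5, Cd9 and Lgals3.

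Spp1, which encodes a secreted ligand of integrins and CD44, was at 11.9, 8.18, 9.83, 34.9 and 7.41 CPM in the Jak2WT mice 1 to 5, at 17.1, 8.59 and 60.3 in mice 6, 8 and 10 with dilation, and at 281 and 915 in mice 7 and 9 with aneurysm. Both aneurysm mice were above the other 8 mice. Spp1 was 19.7-fold higher in aneurysm than in dilation (log2 fold change 4.30, SE 0.58, edgeR adjusted p = 0.000306). The UMIs came from few cells. In mouse 9, 59 of 371 macrophages held 10 or more Spp1 UMIs and 1 cell held 951 of the 4808 UMIs. In mouse 10, a single cell held 139 of the 157 UMIs, or 88.5%. After each cell was thinned to 2000 UMIs, the share of macrophages with a Spp1 UMI was 1.61% to 4.14% in the Jak2WT mice, 1.77% to 3.36% in dilation, and 15.7% and 23.5% in aneurysm. In B cells, which should lack the transcript, it was 1.26% (4.12% unthinned, median 5390 UMIs per cell against 10606 in macrophages). The macrophage shares of all Jak2WT and dilation mice were above that and far below those of the aneurysm mice. The part of free RNA in them was not tested. Without thinning the shares were 6.06% to 10.2%, 6.64% to 9.60%, and 31.9% and 38.0% in the same order.

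Gpnmb, a glycoprotein of lysosomes and melanosomes, had 22.9, 1.82, 2.46, 0 and 0.824 CPM in the Jak2WT mice, 0, 1.43 and 0.384 in dilation, and 109 and 11.2 in aneurysm. The aneurysm mice did not overlap the mice with dilation, whereas mouse 1 lay between them. The contrast rests on 536 UMIs in the aneurysm mice and 3 in the mice with dilation, a ratio of 98.9 with an exact 95% counting interval of 33.7 to 481 that covers counting error only (edgeR adjusted p = 0.00488). Gpnmb entered this test through the aneurysm mice, and between genotypes it was too low to be tested in these cells. Its adjusted p is therefore not independent of the group where it was high. A single cell of mouse 7 held 191 of its 477 UMIs, and all 23 UMIs of mouse 1 were in 1 cell. Without mouse 7 the edgeR adjusted p was 0.0880.

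Trem2, the receptor itself, was detected in macrophages of every mouse. It stood at 278, 284, 321, 230.2 and 299 CPM in Jak2WT, 271, 319 and 288 in dilation, and 500.5 and 515 in aneurysm. The 2 aneurysm mice were nearly equal to each other and above the other 8. Trem2 was 1.82-fold higher in aneurysm than in dilation (log2 fold change 0.87, SE 0.14, edgeR adjusted p = 0.00103). Its UMIs were spread over many cells, with 1 cell holding at most 2.73% of the Trem2 UMIs of an aneurysm mouse. A UMI of both Spp1 and Trem2 was found in 0.479% to 1.39% of thinned macrophages in Jak2WT, 0.608% to 1.69% in dilation, and 11.3% and 16.7% in aneurysm, against 0.00488% in B cells.

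Fabp5, an intracellular carrier of fatty acids, was at 66.6, 17.3, 4.92, 20.6 and 6.59 CPM in Jak2WT, 17.9, 12.2 and 8.45 in dilation, and 239 and 127 in aneurysm. The aneurysm mice were above all others, and in mouse 1, the highest Jak2WT mouse, 1 cell held 59 of 67 UMIs. Fabp5 was 15.7-fold higher in aneurysm than in dilation (log2 fold change 3.98, SE 0.57, edgeR adjusted p = 0.000469). Fabp4, a fatty acid carrier that is also abundant in adipocytes and capillary endothelium, stood at 6.17 to 19.1 in Jak2WT, 17.9 to 31.9 in dilation and 43.7 and 14.6 in aneurysm, and these groups overlap.

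Lgals3 encodes galectin-3, a lectin of phagocytes. It was at 277, 234, 243, 321 and 249.6 CPM in Jak2WT, 288, 503 and 364 in dilation, and 1053 and 1325 in aneurysm. All mice with aneurysm were above all others, with a 3.25-fold difference from dilation (log2 fold change 1.70, SE 0.20, edgeR adjusted p = 0.000128). Cd9, a tetraspanin that organizes membrane proteins, was at 175, 187, 56.5, 146 and 114 in Jak2WT, 79.0, 104 and 55.3 in dilation, and 271 and 318 in aneurysm. Its difference was 3.96-fold (log2 fold change 1.98, SE 0.33, edgeR adjusted p = 0.0016). The Jak2WT mice overlapped those with dilation and lay below those with aneurysm.

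Lpl, the enzyme that frees fatty acids from triglyceride-rich lipoproteins, was at 139, 73.6, 27.0, 69.9 and 25.5 CPM in Jak2WT, 64.8, 65.9 and 41.1 in dilation, and 113 and 187 in aneurysm. The aneurysm mice exceeded those with dilation, but mouse 1 lay between them, and the test was passed narrowly (2.81-fold, log2 fold change 1.49, SE 0.44, edgeR adjusted p = 0.0454). It was lost with DESeq2 (adjusted p = 0.206) and without mouse 9 (edgeR adjusted p = 0.331). Apoe, the lipoprotein ligand that macrophages secrete, ranged from 11667 to 19325 in Jak2WT, 14396 to 16934 in dilation and 16066 to 20696 in aneurysm. Cd36, a scavenger receptor for oxidized lipoproteins and fatty acids, ranged from 211 to 345 in Jak2WT, 277 to 382 in dilation and 206 to 266 in aneurysm.

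The same contrast was then taken outside the Ccr2+ inflammatory clusters, an alternative added after the values were seen. These clusters held 235 of 352 curated macrophages in mouse 7 and 194 of 371 in mouse 9, against 0 to 12 cells in the Jak2WT mice and 3 to 18 in those with dilation. In the aneurysm mice they carried 63.6% of all macrophage UMIs, but 98.9% of the Spp1, 97.2% of the Gpnmb, 94.2% of the Fabp5, 92.6% of the Cd9, 89.7% of the Lpl, 86.7% of the Lgals3 and 79.8% of the Trem2 UMIs. For Apoe and Cd36 the shares were 68.5% and 49.0%. Among the other macrophages, Spp1 was at 14.7 and 21.6 CPM in aneurysm against 5.87 to 10.5 in dilation, and Trem2 was at 278 and 285 against 264 to 316. Lgals3 was at 528 and 380 against 258 to 307, and Fabp5 at 25.1 and 30.3 against 6.29 to 19.4. For Lgals3 and Fabp5 the aneurysm mice were above all other mice. For Spp1, Jak2WT mouse 4 (29.5) was above both, and Cd9 and Lpl overlapped between aneurysm and dilation. The edgeR test called none of the 9 members tested there (adjusted p = 1.00 for each) and none of the 8772 genes.

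**Figure D2:**
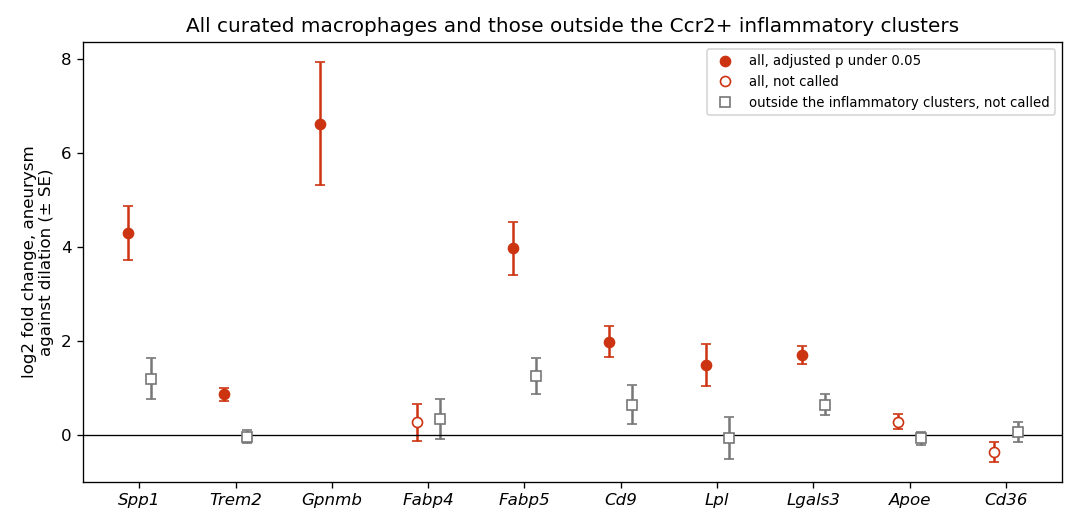
The log2 fold change of aneurysm (n = 2) against dilation (n = 3) for each gene with its standard error, in all curated macrophages (circles, filled where called) and outside the Ccr2+ inflammatory clusters (squares). The 6 called genes that could be tested in both lie nearer to 0 outside these clusters, and Gpnmb was too low there to be tested.

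Other lists of the pathway also held called genes in the same contrast of curated macrophages, read beside 6.02% of all genes called higher and 4.34% lower. A list of TREM2 partners and lysosomal genes also held other genes linked to lipid-associated macrophages, such as Mmp12. Of its 18 tested genes, 7 were higher and none lower, with a median log2 fold change of 0.24 beside -0.01 over all genes. Ctsd and Ctss, which encode lysosomal proteases, were 1.95-fold and 1.82-fold higher (edgeR adjusted p = 0.00345 and 0.0115), and the macrophage elastase Mmp12 was 5.94-fold higher (edgeR adjusted p = 0.0225). Of 17 tested genes of cholesterol handling, 7 were higher and 1 lower, with a median of 0.55. They included the cholesterol exporter Abcg1 (2.83-fold, edgeR adjusted p = 0.000679) and Soat1, which esterifies cholesterol for storage (1.71-fold, edgeR adjusted p = 0.0162). Fatty acid handling had 3 of 13 genes higher and none lower, with a median of 0.043 that is close to that of all genes. Among the 3 were the nuclear receptor Pparg (3.82-fold, edgeR adjusted p = 0.00913) and the lipid droplet protein Hilpda (3.48-fold, edgeR adjusted p = 0.000173). Receptors of osteopontin had 4 of 7 higher and none lower, with a median of 1.08: Itga5 (4.19-fold), Itgb5 (2.55-fold), Itgav (2.26-fold) and Cd44 (2.11-fold). The resident markers Folr2, Cbr2, F13a1, Lyve1 and Gas6 were all lower, at 0.449 to 0.546 of the level in dilation. Markers of adipocytes, endothelium and smooth muscle each summed to at most 7.74 CPM in the aneurysm mice, and overlapped those in dilation. Fibroblast markers summed to 20.7 and 22.8 against 25.1 to 44.7 in dilation. Platelet markers summed to 4.10 and 15.4 in aneurysm, 0.768 to 3.58 in dilation and 1.65 to 14.5 in Jak2WT. Their part in the levels of the members was not tested.

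Within the Ccr2+ inflammatory macrophages, only 5 mice had 10 or more cells, so aneurysm mice 7 and 9 were compared with mice 2, 6 and 10 of both genotypes. Spp1 was at 410.2 and 1499.5 CPM in aneurysm and at 0, 95 and 657 in the other mice, which overlap the aneurysm mice through the single cell of mouse 10. Fabp5 was at 342 and 190.5 against 79.7, 0 and 32.2, and Trem2 at 608 and 667 against 311, 361 and 459.7, without overlap. Lgals3 was at 1307 and 1945 against 924, 285 and 988, also without overlap. Fabp4 had the opposite direction, at 42.2 and 17.6 against 87.7, 9.498 and 152 (log2 fold change -1.71, SE 0.61, edgeR adjusted p = 0.373), and these values overlap. Adipocyte markers summed to 7.97 CPM in Jak2WT mouse 2, to 9.498 and 271 in the mice with dilation and to 2.52 and 7.43 in aneurysm. Their part in the Fabp4 values was not tested. The edgeR test called none of the 9 members tested, with 4 under an unadjusted p of 0.05 (Trem2, Fabp5 and Lgals3 higher, Fabp4 lower), and DESeq2 called 1, Fabp5 (log2 fold change 2.80, adjusted p = 0.0429). Across 3311 genes edgeR called 0% higher and 0.0906% lower, and 362 were under an unadjusted p of 0.05. For DESeq2 and for values without overlap the share over all genes is not given, so those describe the members only. In edgeR the Fabp5 difference was 6.87-fold (adjusted p = 0.189). The mix of the inflammatory clusters differed between these mice. Mmp12-Pdpn cells were 121 of 235 in mouse 7 and 161 of 194 in mouse 9. They were 6 of 12, 1 of 11 and 5 of 18 in mice 2, 6 and 10. Over mice 7 and 9, that cluster averaged 378 CPM of Fabp5 against 70.6 in the Il1a-Hbegf cluster. Spp1, Trem2 and Lgals3 were also higher in it. The part of this mix in the differences was not tested.

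The members fell into different orders across classes, given here as a description over the classes in which 2 or more mice had at least 10 cells. Spp1, Gpnmb, Fabp5, Lgals3 and Trem2 were highest in the inflammatory Mmp12-Pdpn cluster, where only the 2 aneurysm mice had enough cells. Spp1 reached 614 and 1627 CPM there, Gpnmb 256 and 18.3, Trem2 668 and 681, and Lgals3 1981 and 2107. In the same mice the Il1a-Hbegf cluster had 162 and 397 of Spp1. For Lgals3 the cluster did not overlap the next class, cDC2 (619.8 to 1774), and for Trem2 it did not overlap the Il1a-Hbegf cluster (313 to 545). For Spp1 it overlapped proliferating cells (15.3 to 1460.3) and for Fabp5 these too (44.8 to 268). Monocytes, with at most 8 cells in a mouse, stand outside the order. Over all 27 of them Lgals3 was at 2075 CPM, against 2033 over all cells of the Mmp12-Pdpn cluster.

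Fabp4 separated from this pattern. It was highest in the Saa3+ cavity-type cells, at 555, 712 and 849 CPM in mice 5, 8 and 10, and no other class overlapped these values. The cavity-type cells came mainly from Jak2WT mouse 5 (77 cells) and dilation mouse 10 (99 cells), and held little Spp1 (0 to 3.97) and Trem2 (32.3 to 57.7). Lpl was highest in cDC2, at 448 to 2448, above the 221 and 287 of the Mmp12-Pdpn cluster. Of these classes, Cd9 was highest in neutrophils (624 to 1014), next to the Mmp12-Pdpn cluster (538 and 560). Platelets, which reached 10 cells in mouse 6 alone and so stand outside the order, had 9288 CPM of Cd9 there. Apoe was at 7908 or more in each macrophage cluster and mouse listed, with means from 13013 in the Cd209g-Tppp3 to 22448 in the Txnip-Ddit4 resident cluster, whose ranges overlap. Cd36 was highest in the Cd209g-Tppp3 resident cluster, at 307 to 481, and overlapped the Txnip-Ddit4 cluster. In B cells Spp1 was at 0 to 14.8, Trem2 at 7.70 to 19.9 and Apoe at 618 to 1713 CPM.

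**Figure D3:**
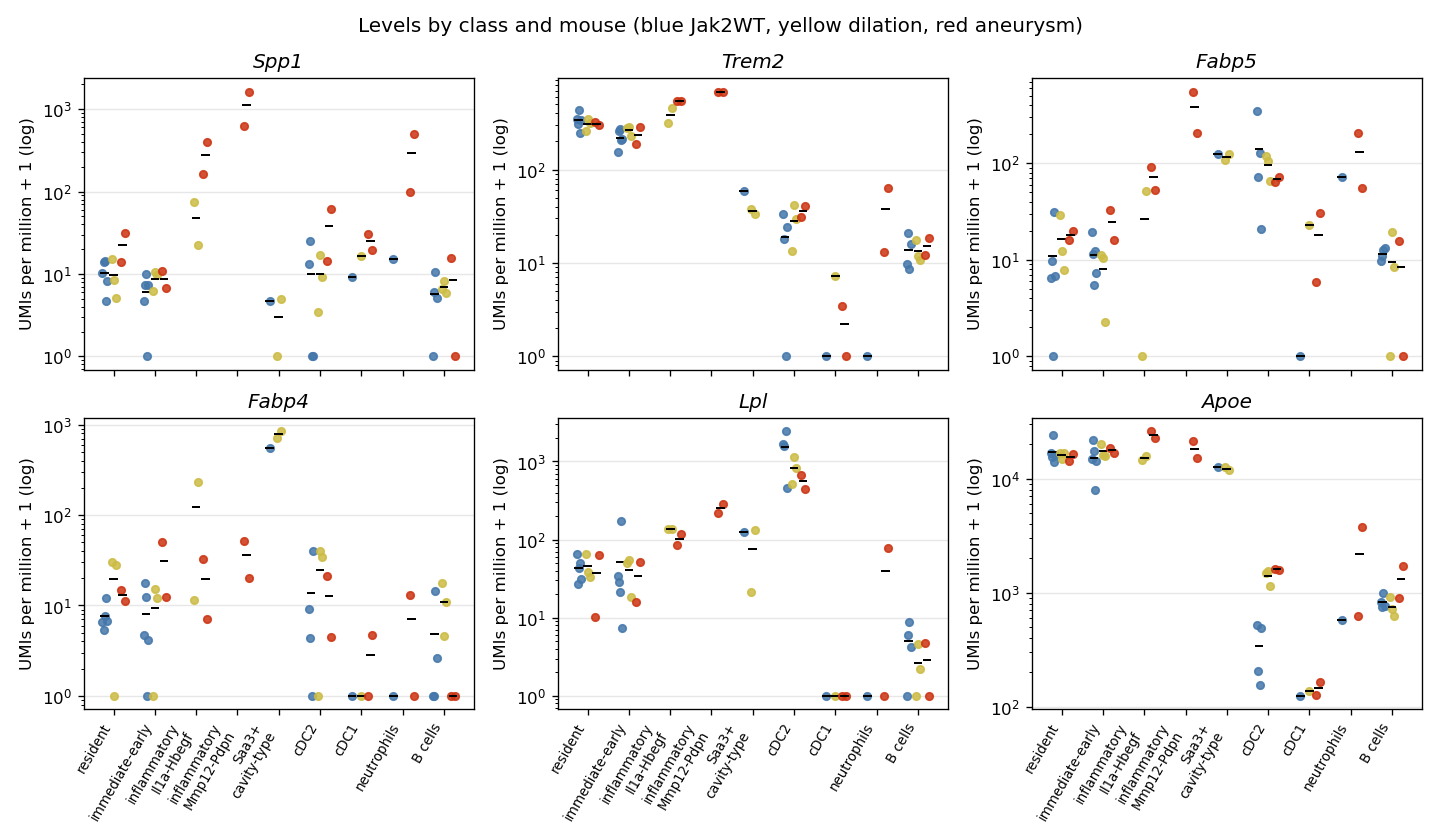
CPM plus 1 (log axis) of 6 genes in each class, with 1 point per mouse with at least 10 cells and a bar at the mean of each group (Jak2WT blue, dilation yellow, aneurysm red). Spp1, Trem2 and Fabp5 peak in the Mmp12-Pdpn cluster, Fabp4 in the Saa3+ cavity-type cells, and Lpl in cDC2.

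The genes most like each member were named by Pearson's r of log2(CPM + 1) over 96 sums of a mouse and a class. The points share mice and depth, and 9568 genes were ranked. Spp1 was closest to the protease genes Mmp14 (r = 0.65) and Mmp12 (0.57) and to Cxcl14 (0.61). Trem2 and Apoe were both close to the complement gene C1qa (0.89 and 0.94), and Cd36 to Trf (0.90) and Cd68 (0.89). Lpl was closest to Ccl9 (0.81) and to the lipoprotein receptor Lrp1 (0.79), Lgals3 to Arpc1b (0.77), Cd9 to Taldo1 (0.65), Fabp5 to Thbs1 (0.63), Fabp4 to Ptgis (0.59) and Gpnmb to Cxcl14 (0.54). Between members, r was 0.84 for Trem2 and Apoe, and 0.39 for Spp1 and Trem2.

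Between genotypes, the curated macrophages of 5 Jak2V617F MyC and 5 Jak2WT mice gave no called member of 9 tested by edgeR, with 4 members under an unadjusted p of 0.05, and 0% of 8125 genes called higher and 0% lower (966 under an unadjusted p of 0.05). DESeq2 called 2 members higher, Spp1 and Lgals3. Spp1 averaged 256 ± 384 CPM (SD, n = 5) in mutant and 14.5 ± 11.6 in Jak2WT mice (log2 fold change 4.44, SE 1.17, edgeR adjusted p = 0.217), and the groups overlap because mice 6 and 8 with dilation lie among the controls. Lgals3 averaged 706 ± 457 and 265 ± 34.9 (log2 fold change 1.47, SE 0.37, edgeR adjusted p = 0.204). In a fit of 3 groups, both were called (log2 fold changes 3.10 and 1.23, edgeR adjusted p = 0.0149 and 0.00132). That fit leaves the difference between dilation and aneurysm mice out of the spread, so its p-values do not measure the spread among all mutant mice. The lists of the pathway had no called gene.

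Within the resident macrophages of both clusters, Lgals3 was called higher in mutant mice. The mix of resident clusters differed between genotypes, and neither cluster alone, with fewer cells, gave the call. It was at 211, 203, 198, 285 and 172 CPM in Jak2WT mice, 275, 303 and 411 in dilation, and 614 and 379 in aneurysm. All mutant mice except mouse 6 were above all Jak2WT mice. The difference was 1.91-fold (log2 fold change 0.93, SE 0.19, edgeR adjusted p = 0.0155), and edgeR called 1.60% of 6690 genes higher and 0.433% lower. DESeq2 also called it, and it was lost without mouse 1 (edgeR adjusted p = 0.0551) or mouse 3 (0.0516). Of 6 members tested, Lgals3 was the 1 called. The Cd209g-Tppp3 cluster held 91 of 238 resident cells in Jak2WT and 333 of 438 in mutant mice, and Lgals3 averaged 404 CPM in it against 159 in the Txnip-Ddit4 cluster. In an alternative added after the values were seen, the log2 fold change was 0.57 (SE 0.25, edgeR adjusted p = 0.506, DESeq2 0.719) in the Cd209g-Tppp3 cluster alone, with 3 Jak2WT and 5 mutant mice. It was 0.33 (SE 0.35, edgeR adjusted p = 0.922, DESeq2 0.999) in the Txnip-Ddit4 cluster alone, and the genotypes overlap in both. The direction was the same in both clusters, each of which held fewer cells than the whole class. The part of the mix in the difference was not tested. Over all genes and both directions, edgeR called 15 of 6578 in the Cd209g-Tppp3 cluster and 0 of 2977 in the Txnip-Ddit4 cluster. In all resident macrophages, 1 gene was called higher and 1 lower of 15 tested from the list of TREM2 partners and lysosomal genes. Of 16 tested genes of cholesterol handling, 1 was higher and none lower. The higher ones were the lysosomal protease gene Ctsd (1.40-fold, edgeR adjusted p = 0.0305) and Mylip, which marks lipoprotein receptors for degradation (2.55-fold, edgeR adjusted p = 0.00927).

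Cd9 in resident macrophages was at 105, 234, 46.2, 89.9 and 67.9 CPM in Jak2WT and 47.9, 47.6, 34.6, 96.7 and 45.7 in mutant mice 6, 8, 10, 7 and 9. The groups overlap, and the difference was not called (log2 fold change -1.03, SE 0.33, edgeR adjusted p = 0.127). Gpnmb had a UMI in the resident macrophages of only 1 of the 10 mice, mouse 9, and Spp1 ranged from 3.74 to 30.5 over the 10 mice, against 0 to 14.8 in B cells. Aneurysm against dilation gave no called member of 8 tested in resident macrophages by edgeR (1 under an unadjusted p of 0.05, none by DESeq2), with 0.0130% of 7677 genes called higher and 0% lower. Of all these genes, 286 were under an unadjusted p of 0.05.

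The immediate-early macrophages gave no called member in either contrast, by edgeR or DESeq2, with 6 tested and 0 under an unadjusted p of 0.05 in each. Of 4694 genes, edgeR called 0.0213% higher and 0.0213% lower between genotypes, and of 5794 genes 0.0345% higher and 0.0173% lower between aneurysm and dilation. Trem2 ranged there from 151 to 268 CPM in Jak2WT and from 187 to 284 in mutant mice, and Lgals3 from 42.04 to 306 and from 59.1 to 154.

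In cDC2, dendritic cells that present antigen to CD4 T cells, Apoe was at 524, 204, 154 and 488 CPM in Jak2WT mice 1, 2, 4 and 5, and at 1499, 1557, 1151, 1623 and 1573 in mutant mice 6, 8, 10, 7 and 9. The groups did not overlap. Mouse 3 had 7 cDC2 and was left out. Apoe was 4.13-fold higher in the mutant mice (log2 fold change 2.05, SE 0.31, edgeR adjusted p = 0.0372), 1 of 7 members tested, and edgeR called 0.0456% of 4390 genes higher and 0% lower. DESeq2 also called it. The edgeR adjusted p was above 0.05 without mouse 2, 6, 8, 10, 7 or 9 (0.0617 to 0.213), and with another hashtag caller, MULTIseqDemux, the log2 fold change was 0.90 (edgeR adjusted p = 0.693). The other gene called was the platelet factor gene Pf4, which resident macrophages also express. The macrophage transcripts C1qa, C1qb and C1qc were not called (log2 fold changes 1.53, 1.67 and 1.64, edgeR adjusted p = 0.385, 0.270 and 0.406). Together they made up 194 to 1431 CPM in the 4 Jak2WT mice and 1650.3 to 3905 in the mutant mice. Of the other macrophage markers, Mrc1 averaged 405 CPM in mutant and 360 in Jak2WT mice (log2 fold change 0.17), Adgre1 106 and 66.8 (0.59) and Csf1r 249 and 155 (0.62), and none of these was called. Of the 5 resident markers, 4 were tested and none was called, with a median log2 fold change of 1.51 beside -0.01 over all genes.

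A limit was set on C1q UMIs after the values were seen: the 95th percentile of their share in B cells, 0.130% of a cell's UMIs. Of 391 cDC2, 305 lay at or under it. In these cells Apoe was at 182, 206, 154 and 468 CPM in the Jak2WT mice and at 189.9, 171, 129, 310.1 and 173 in the mutant mice, and the groups overlap. The log2 fold change was -0.42 (SE 0.34, edgeR adjusted p = 0.821), and 0 of 3764 genes were called. The difference seen in all cDC2 was not seen without the 86 cells above the limit. Apoe went with C1qa over the sums (r = 0.94), so a limit on C1q also takes out cells rich in Apoe. The limit therefore cannot tell where the difference comes from, which was not tested. The levels at or under the limit lie below the 618 to 1713 of B cells.

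**Figure D4:**
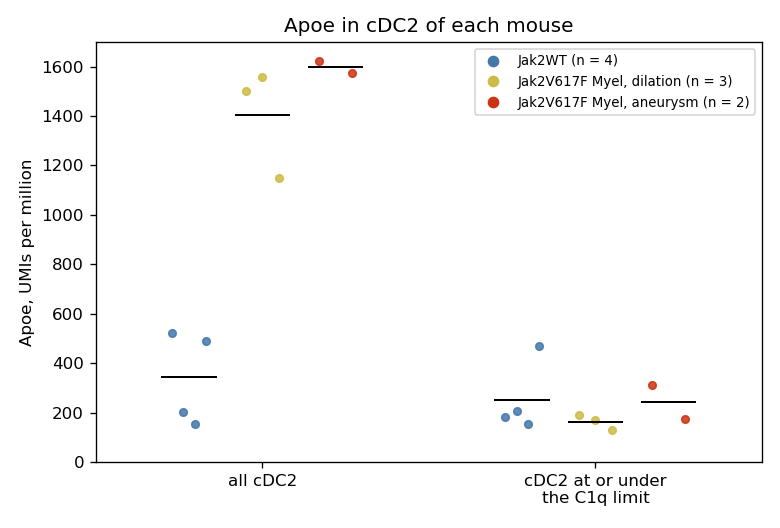
Apoe in CPM in all cDC2 and in cDC2 at or under the C1q limit, with 1 point per mouse and a bar at the mean of Jak2WT (n = 4), dilation (n = 3) and aneurysm mice (n = 2). Mutant mice lie at 1151 to 1623 in all cDC2 and at 129 to 310.1 at or under the limit.

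Lpl in cDC2 was at 1680.3, 1593, 2448 and 462 CPM in Jak2WT mice and at 520.4, 1138, 817, 671 and 448 in mutant mice. Mouse 5 lay among the mutants, and the difference was not called (log2 fold change -1.12, SE 0.35, edgeR adjusted p = 0.374). At or under the C1q limit it was -1.27 (SE 0.38, edgeR adjusted p = 0.414). Aneurysm against dilation gave no called member of 8 tested in cDC2 by edgeR (1 under an unadjusted p of 0.05, none by DESeq2), with 0.155% of 5150 genes called higher and 0% lower. Of all these genes, 351 were under an unadjusted p of 0.05.

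Antibodies to 3 proteins of the members were in the panel of 75. The CD9 antibody gave 21.7, 28.4, 15.2, 26.8 and 18.1 counts per curated macrophage in Jak2WT mice, 15.9, 15.6 and 15.5 in dilation, and 44.4 and 33.6 in aneurysm. Both aneurysm mice were above all others. The difference from dilation was 2.74-fold (log2 fold change 1.45, SE 0.29, edgeR adjusted p = 0.0114 over 73 antibodies, of which 4.11% were called higher and 1.37% lower). It went in the direction of the Cd9 transcript. Leaving out mouse 6, 8 or 7 ended the call (edgeR adjusted p = 0.0595, 0.0632 and 0.119), and without mouse 7 the aneurysm group is a single mouse that is assumed to vary like the others. B cells had 0.981 to 3.64 counts per cell.

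Surface CD9 was higher on Ccr2+ inflammatory than on resident macrophages. It reached 50.9 to 70.3 counts per cell in the 5 mice with enough inflammatory cells and 8.12 to 36.2 in resident cells of the 10 mice, which do not overlap. In resident macrophages CD9 was at 16.9, 36.2, 13.8, 8.12 and 13.01 in Jak2WT and 14.1, 11.6, 9.40, 13.6 and 14.0 in mutant mice. Mouse 2 was the highest for the antibody and the transcript. The genotype difference was not called by edgeR (log2 fold change -0.997, SE 0.26, adjusted p = 0.101) but was by DESeq2 (adjusted p = 0.0080). The percentage of antibodies called was 0% in each direction for both genotype contrasts and for aneurysm against dilation in resident macrophages. The CD36 antibody gave 0.394 to 0.978 counts per cell and the galectin-3 antibody (Mac2) 0.0563 to 0.159, against 0.211 to 0.802 for the hamster and 0.173 to 0.508 for the rat IgG1 isotype control, so no difference in these proteins could be read at this depth.

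**Figure D5:**
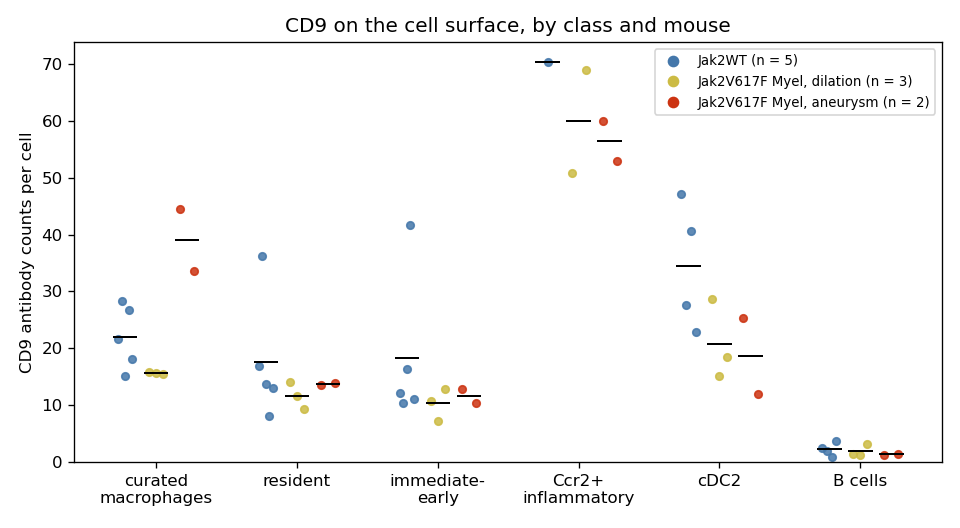
CD9 antibody counts per cell in 6 classes, with 1 point per mouse with at least 10 cells and a bar at the mean of Jak2WT, dilation and aneurysm mice. In curated macrophages the aneurysm mice lie at 33.6 and 44.4, above the 15.2 to 28.4 of all others, and the 5 values of the Ccr2+ inflammatory class lie at 50.9 to 70.3.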

How the data were processed

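The authors deposited unnormalized UMI counts per cell barcode for 32285 genes, 75 antibodies and 10 hashtags, made with Cell Ranger 6.0.2 on mm10 (GRCm38), in 8471 barcodes; the submitters' notes name Seurat 3.0.0. The 10 genes and the lists of related genes were chosen with earlier results of these data known. Hashtags were assigned by HTODemux (0.99), cells with over 10% mitochondrial UMIs and low-RNA macrophage clusters were left out, and clusters were built in Seurat 5.3.0 under R 4.3.3 (2000 variable genes without the members, 20 components, resolutions 0.3 and 0.8). Barcodes with several hashtags (2265) were removed as doublets; doublets within 1 mouse stay. UMIs were summed per mouse and class (at least 10 cells), tested two-sided, after filterByExpr and TMM scaling, with edgeR 4.0.16 (quasi-likelihood, Benjamini-Hochberg, 0.05). On simulated counts with the same dispersion for every gene, this recovered 67% to 91% of genes changed 4-fold, with 5 to 11 false calls. Those counts do not copy members whose UMIs lie in few cells, so they say little about such members. The SE of an edgeR log2 fold change is its absolute value divided by the square root of the test's F statistic. DESeq2 1.42.0 was an alternative. Aneurysm was contrasted with dilation in a fit of 3 groups, genotypes in a fit of 2. All members are named, and of other lists up to 5 called genes with the largest fold change per comparison were eligible. Alternatives were computed for members under an unadjusted p of 0.05. The share of cells with a UMI is the expected value after thinning to 2000 UMIs. Hashtag assignment and free RNA can move transcripts between mice and classes. Intervals cover counting error only. 1 listed gene is not reported here by name.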

Additional observations from a re-analysis of the deposited data

Results flagged for a closer look

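Of 80 groups of mice examined with Dixon's test, 16 held a mouse far from the others. The test flags about 1 in 20 by chance where values are normal and come from 1 group. Here the mutant values pool dilation and aneurysm mice, and some rest on few UMIs. For Gpnmb in resident macrophages, all mutant mice but mouse 9 were at 0. The 16 can therefore not be read as an excess over chance. In curated macrophages, the highest values stood apart for Spp1 in Jak2WT mouse 4 (34.937 CPM), for Gpnmb in Jak2WT mouse 1 (22.86) and mutant mouse 7 (108.559) and for Fabp5 in Jak2WT mouse 1 (66.594), and the lowest for Cd36 in Jak2WT mouse 3 (211.375). In mouse 4, 12 of the 17 Spp1 UMIs were in 1 cell. In resident macrophages the highest values stood apart for Gpnmb in mouse 9 (1.451), Fabp5 in mouse 4 (29.96), Cd9 in mouse 7 (96.735) and Apoe in mouse 3 (23944.88). In immediate-early macrophages they did for Gpnmb in mice 5 (3.194) and 7 (32.004), Fabp4 in mouse 7 (49.236), Cd9 in mouse 6 (76.923) and Lpl in mouse 4 (169.939), which had 10 cells. In cDC2, Spp1 was highest in mouse 9 (59.875) and Apoe lowest in mutant mouse 10 (1151.145).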

How the results depend on the processing

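The 7 members called between aneurysm and dilation in curated macrophages were 5 to 7 when 1 mouse was left out, and 0 outside the Ccr2+ inflammatory clusters, where Trem2 (log2 fold change -0.036) and Lpl (-0.064) changed sign. That alternative, the single resident clusters and the C1q limit were added after seeing the data. Between genotypes, members called higher in curated macrophages went from 0 to 2 with DESeq2, with no filter on low counts and in a fit of 3 groups. In resident macrophages 2 were called higher and 1 lower with no filter, 0 higher in either resident cluster alone, and 0 to 1 higher with 1 mouse left out. Of all genes, 15 of 6578 were called in the Cd209g-Tppp3 and 0 of 2977 in the Txnip-Ddit4 cluster. For DESeq2, no filter and mice left out, the share over all genes is not given, so those counts describe the members only. In cDC2, 1 was called lower with no filter, 0 higher in a fit of 3 groups, with MULTIseqDemux, with a 5% mitochondrial limit and at or under the C1q limit (Apoe -0.42), and 0 to 1 with 1 mouse left out. Aneurysm against dilation in cDC2 gave 1 with no filter. In Ccr2+ inflammatory macrophages, 1 was called higher with DESeq2, 4 higher and 1 lower with no filter, and 0 to 2 higher with 1 mouse left out. For the CD9 antibody, the genotype log2 fold change in curated macrophages was 0.078 with the total antibody count as library size. In resident macrophages it was -1.06 with DESeq2 and -1.16 to -0.72 with 1 mouse left out. Aneurysm against dilation ranged from 0.96 to 1.73 in curated macrophages and from -0.0012 to 0.30 in resident macrophages. The Mac2 antibody ranged from -0.11 to 0.42 in curated and from -0.35 to 0.31 in resident macrophages. The causes were not tested. Where 1 aneurysm mouse was left out, the lone sample is assumed to vary like the other groups. No paired analysis was possible because the mice of the groups share no replicate numbers. With 2 aneurysm mice and 1 pool, small differences could not be detected.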
